A study of Mus musculus with 6 samples.

Results

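Nqo1 and the glutathione-linked redox enzymes are a set of genes whose products detoxify quinones, peroxides, superoxide and reactive carbonyls. Members were the protein-coding genes of the deposited tables named Nqo1, Hmox1, Gclm, Gclc, Txnrd1 or Srxn1, or named as a numbered glutathione S-transferase (Gst), glutathione peroxidase (Gpx), superoxide dismutase (Sod) or peroxiredoxin (Prdx). This rule found 6 of the 2031 deposited genes: Nqo1, Gsta3, Gsta4, Gstp2, Gpx2 and Gpx8. In the GENCODE M21 annotation the same names cover 45 protein-coding genes, and the other 39 were not analysed here. They comprise 19 of 22 Gst genes, 6 of 8 Gpx genes, all 3 Sod genes, all 6 Prdx genes, and Hmox1, Gclm, Gclc, Txnrd1 and Srxn1.

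The RNA came from cells differentiated from J1, a mouse embryonic stem cell line of the 129S4/SvJae strain. Cells of both groups were steered towards heart muscle by the hanging drop method, in which aggregates called embryoid bodies form within 3 days. Embryoid bodies of the 3 NC samples grew in a conventional incubator, and those of the 3 MF samples under a static magnetic field. All 6 samples come from J1 alone and are called biological triplicates; the sources used here do not give the strength or length of exposure or the day of sampling. The stem cell medium in the labels contained β-mercaptoethanol, a thiol reductant, but whether it was present during differentiation is not said.

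Most of these enzymes belong to the defence against electrophiles and oxidants that is controlled by NRF2 (the product of Nfe2l2). In unstressed cells the adaptor KEAP1 marks NRF2 for degradation; when KEAP1 cysteines are modified, NRF2 accumulates and binds antioxidant response elements (AREs) with small MAF proteins. Nqo1 reduces quinones fully to hydroquinones, Gst enzymes couple glutathione to electrophiles, and Gpx enzymes reduce peroxides. Pluripotent cells and heart muscle cells differ in their metabolism and in their exposure to oxidants, and both are studied for this system.

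The promoters of Nqo1, the best-known ARE-controlled gene, and of the transferase genes Gsta3 and Gstp2 are shown because the first names the set and the other two were the members in which a searched motif was found. RefSeq windows on GRCm38.p6 (the mm10 build) were matched for 5 of the 6 members: Nqo1, Gsta3, Gstp2, Gpx2 and Gpx8. The ARE core, TGACNNNGC, and the AP-1 site, TGANTCA, were searched on both strands from 250 bases before to 50 bases after the start; the motifs can overlap in their first letters. Each line gives the 250 bases before the start, 5′ to 3′ in the direction of transcription, with motif matches in capitals.
Nqo1 promoter, chr8:107403206-107403455, minus strand: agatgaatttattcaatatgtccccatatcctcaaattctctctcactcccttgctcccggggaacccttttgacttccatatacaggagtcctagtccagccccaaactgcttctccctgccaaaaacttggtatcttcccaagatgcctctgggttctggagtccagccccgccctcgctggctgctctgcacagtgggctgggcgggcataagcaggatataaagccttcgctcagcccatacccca
Gsta3 promoter, chr1:21240335-21240584, plus strand: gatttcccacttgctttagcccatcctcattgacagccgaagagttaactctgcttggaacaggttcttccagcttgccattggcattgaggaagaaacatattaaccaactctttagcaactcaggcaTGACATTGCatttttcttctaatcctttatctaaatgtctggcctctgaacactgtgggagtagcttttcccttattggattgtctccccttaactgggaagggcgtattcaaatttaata
Gstp2 promoter, chr19:4042222-4042471, minus strand: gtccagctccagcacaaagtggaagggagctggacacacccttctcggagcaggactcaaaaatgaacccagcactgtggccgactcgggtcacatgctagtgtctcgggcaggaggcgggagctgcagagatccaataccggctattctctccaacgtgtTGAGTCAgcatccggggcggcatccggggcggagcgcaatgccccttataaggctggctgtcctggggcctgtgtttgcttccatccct
Gsta3 holds one ARE core match, TGACATTGC, between bases -121 and -113 from the start. Gstp2 holds an AP-1 match, TGAGTCA, between bases -89 and -83, which also reads as AP-1 on the other strand. The RefSeq start of Gstp2 lies inside the longer gene of the files, so its window does too. No match of either motif lies in the windows of Nqo1, Gpx2 or Gpx8. Bases outside these windows were not searched. Of the 32851 RefSeq mouse promoter windows of this length, 12.4% hold the ARE core and 7.81% the AP-1 site, and a match describes letters in the window, not a bound site.

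Every gene of the tables analysed here lies past a threshold on size and adjusted p: in the authors' deposited table no adjusted p exceeds 0.0499 and no log2 fold change is smaller in size than 1.001. The comparisons here therefore describe a set chosen on the same libraries. Library totals ranged from 14929232 to 19176383 counts. Levels are in FPKM, counts scaled to gene length and library total; at these depths a count of 3 in a gene of 1 kb equals 0.156 to 0.201 FPKM. Genes with a name and a mean level of 0.5 FPKM or more (1651) were tested by edgeR's quasi-likelihood method, with p-values adjusted over them after Benjamini-Hochberg; 97.5% passed at 0.05, 35.4% were called lower in MF and 62.1% higher. All 6 redox genes were in the tested set; 5 were called lower and 1, Gpx8, higher. The words fell and rose refer to that test. The median log2 fold change was -1.70 over the 6 redox genes and 1.22 over all tested genes. The authors' adjusted p-values imply 19069 tests in all. With adjustment over that many, edgeR passed 0 genes (1613 had an unadjusted p under 0.05), and the 6 redox genes had an adjusted p by edgeR of 0.280 to 0.494; genes outside the tables were given no rank, so these values can only be too high. In the authors' deposited table the adjusted p of the members ran from 4e-05 for Nqo1 to 0.0478 for Gpx8.

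Nqo1, the NAD(P)H quinone dehydrogenase, fell in MF with little spread within either group. The gene (ENSMUSG00000003849) lies on the minus strand of mm10 chromosome 8 between 107388225 and 107403206 and has 1 annotated transcript of 6 exons. Its level was 16.4, 19.2 and 15.3 FPKM in NC replicates 1, 2 and 3, and 6.48, 8.39 and 6.57 FPKM in MF replicates 1, 2 and 3. The groups did not overlap: the lowest control library stood 1.82-fold above the highest exposed one, and replicate 2 was the highest library in both groups. The mean was 17.0 ± 2.01 FPKM in NC and 7.15 ± 1.08 FPKM in MF (SD, n = 3), a 2.37-fold fall (log2 fold change -1.25, SE 0.39, adjusted p = 0.0247 by edgeR). The coefficient of variation was 11.9% in NC and 15.1% in MF, and in NC 9.21% and in MF 9.02% of tested genes had a lower one. Between 166 and 480 counts lay behind each value, and the variance between replicates was 5.81 times the counting variance in NC and 4.37 times in MF. The adjusted p by edgeR was 0.0596 without NC replicate 1, 0.0825 without MF replicate 1 and 0.0936 without MF replicate 3, while the log2 fold change stayed between -1.38 and -1.15 when any library was left out. Calls over all tested genes also dropped, from 1026 higher and 584 lower with all 6 libraries. Without NC replicates 1, 2 and 3 in turn, 422, 589 and 629 genes were called higher and 219, 146 and 383 lower. Without MF replicates 1, 2 and 3 in turn, 357, 996 and 12 were called higher and 90, 582 and 0 lower. Lost calls of the members below belong beside these counts. In bulk RNA, fewer cells expressing a gene and less RNA per cell cannot be told apart, here or for the genes below.

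**Figure D1:**
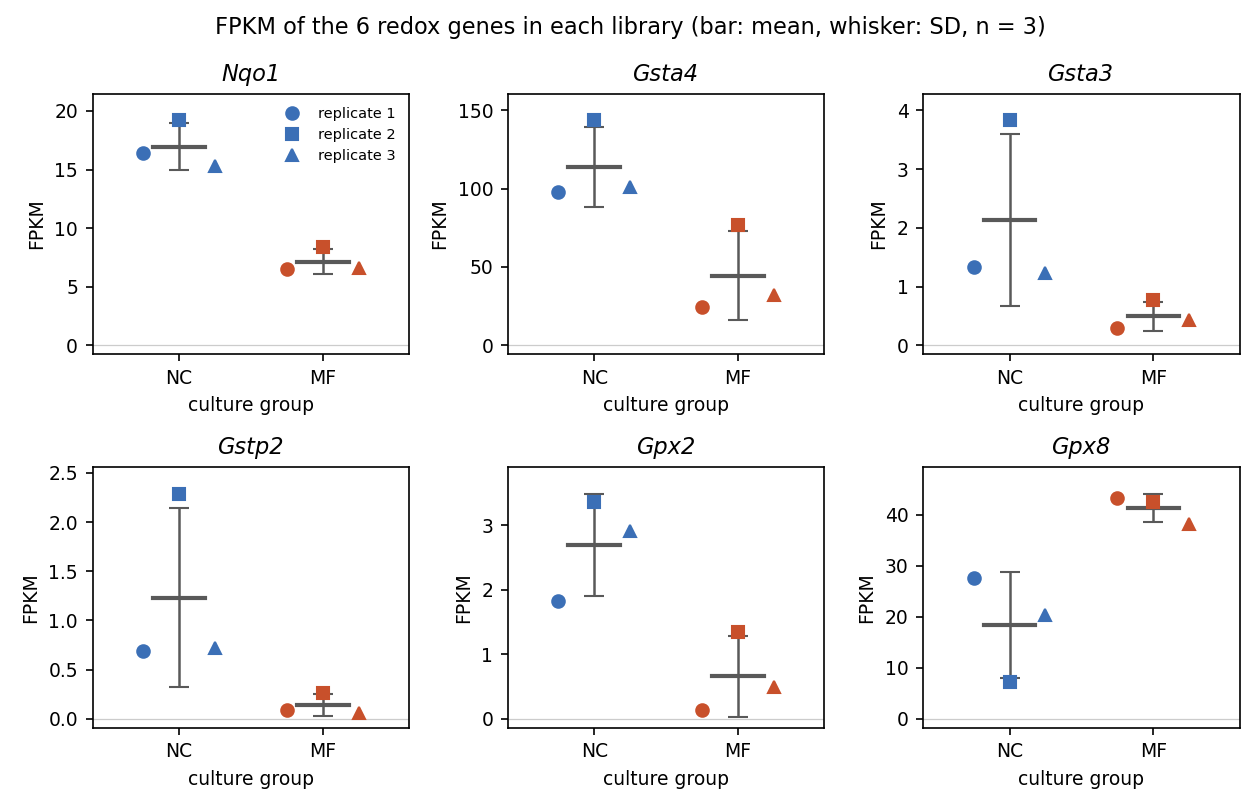
Deposited FPKM (vertical axes, linear, one panel per gene) of the 6 redox genes in the NC and MF groups; points are libraries, marked by replicate number, bars the mean and whiskers the SD (n = 3). Nqo1, Gsta4, Gsta3, Gstp2 and Gpx2 sit lower in each MF library than in any NC library, and Gpx8 sits higher.

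Gsta4, the alpha-class transferase that conjugates hydroxynonenal and other products of lipid peroxidation, was the most abundant member and fell in MF. It lies on the plus strand of mm10 chromosome 9 between 78182774 and 78209349 (ENSMUSG00000032348). Its level was 97.6, 143 and 101 FPKM in NC replicates 1 to 3 and 24.7, 76.8 and 31.9 FPKM in MF replicates 1 to 3. MF replicate 2 stood apart from the other exposed libraries and came within 1.27-fold of the lowest control, although the groups did not overlap. The mean was 114 ± 25.5 FPKM in NC and 44.5 ± 28.2 FPKM in MF (SD, n = 3), a 2.57-fold fall (log2 fold change -1.36, SE 0.49, adjusted p = 0.0306 by edgeR). With 599 to 2926 counts per library, counting error was small, and the variance between MF replicates was 400 times the counting variance. Without NC replicate 1, NC replicate 2, MF replicate 1 or MF replicate 3 the adjusted p by edgeR was 0.0586, 0.0693, 0.0970 and 0.107. By mean FPKM Gsta4 ranked 33 of the 2031 deposited genes in NC and 73 in MF.

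Gsta3, another alpha-class transferase, known in mice for detoxifying the aflatoxin epoxide, fell from a far lower level. It lies on the plus strand of mm10 chromosome 1 between 21240589 and 21265661 (ENSMUSG00000025934). Its level was 1.34, 3.83 and 1.23 FPKM in NC replicates 1 to 3 and 0.288, 0.767 and 0.424 FPKM in MF replicates 1 to 3. In both groups replicate 2 was the highest library, and the groups did not overlap. The mean was 2.13 ± 1.47 FPKM in NC and 0.493 ± 0.247 FPKM in MF (SD, n = 3), a 4.32-fold fall (log2 fold change -2.11, SE 0.65, adjusted p = 0.0247 by edgeR). The log2 fold change was -1.38 without NC replicate 2, where the adjusted p by edgeR was 0.0658; without MF replicate 1 and without MF replicate 3 the adjusted p was 0.0672 and 0.0911. An antisense gene, Gm28836, overlaps Gsta3 on the other strand, and since no source used here says whether counting used strand, reads of the pair cannot be told apart. Summed over Gsta3, Gsta4 and Gstp2 alone, levels were 117 ± 27.9 FPKM in NC and 45.1 ± 28.6 FPKM in MF (SD, n = 3). Gsta4 made up between 95.9% and 98.7% of this sum in each library. These shares depend on the gene lengths used for FPKM, the merged exons. For Gsta3 those were 4344 bases, against 1457 in its longest coding transcript, and for Gsta4 1266 against 977. The sum leaves out the 19 Gst genes not analysed here. It also leaves out an unnamed pi-class locus, described below, at a mean of 13.6 FPKM in NC and 6.13 FPKM in MF. The share of Gsta4 among all transferases is therefore not given.

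Gstp2, a pi-class transferase, had the largest fall of the set and the fewest counts. It lies on the minus strand of mm10 chromosome 19 between 4040285 and 4046023 (ENSMUSG00000038155), close to its relatives Gstp1 and Gstp3. It had 12, 41 and 12 counts in NC replicates 1 to 3 and 2, 5 and 1 counts in MF replicates 1 to 3. The levels were 0.689, 2.29 and 0.722 FPKM in NC and 0.0937, 0.267 and 0.0552 FPKM in MF, and no exposed library reached a control. The exact 95% Poisson interval of the lowest value, in MF replicate 3, ran from 0.0014 to 0.308 FPKM and covers counting error only. The means were 1.23 ± 0.913 and 0.139 ± 0.113 FPKM (SD, n = 3), an 8.56-fold fall (log2 fold change -3.10, SE 0.95, adjusted p = 0.0243 by edgeR). Without NC replicate 2 the log2 fold change was -2.30 and the adjusted p by edgeR 0.0696, and without MF replicate 1 and MF replicate 3 the adjusted p was 0.0583 and 0.0920.

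The counts of Gstp2 are uncertain because copies of its sequence exist. Of the 50-base words in its annotated protein-coding transcripts 50.4% also occur in transcripts of another gene, mostly Gstp1 (44.7%), and 42.2% of its 100-base words do. The same share was 0% for Nqo1, Gsta3, Gsta4 and Gpx8 at both word lengths, and 18.9% and 5.17% for Gpx2, all with the pseudogene Gpx2-ps1. The deposited tables also hold 2 loci without a gene name on the scaffold CHR_MG153_PATCH, an alternative assembly piece, whose description in the tables names glutathione S-transferase P. The first (4035403 to 4042270 on that scaffold) had 182, 252 and 371 counts in NC replicates 1 to 3 and 132, 109 and 164 counts in MF replicates 1 to 3. Its level was 13.6 ± 5.32 FPKM in NC and 6.13 ± 1.54 FPKM in MF (SD, n = 3), above that of Gstp2 itself in each library, and its groups did not overlap. The second (4057474 to 4059209) had 17, 10 and 13 counts in NC and 0 in each MF library, at least 14.9-fold lower in MF against a floor of 3 counts over the group. Summed over Gstp2 and both loci, the level was 19.6 ± 6.56 CPM (counts scaled to the library total) in NC and 7.97 ± 1.88 in MF (SD, n = 3), a ratio of 2.46, against the 8.56-fold fall of Gstp2 alone. How the authors' counting treated reads that match both the chromosome and the patch is not stated in the sources used here.

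**Figure D2:**
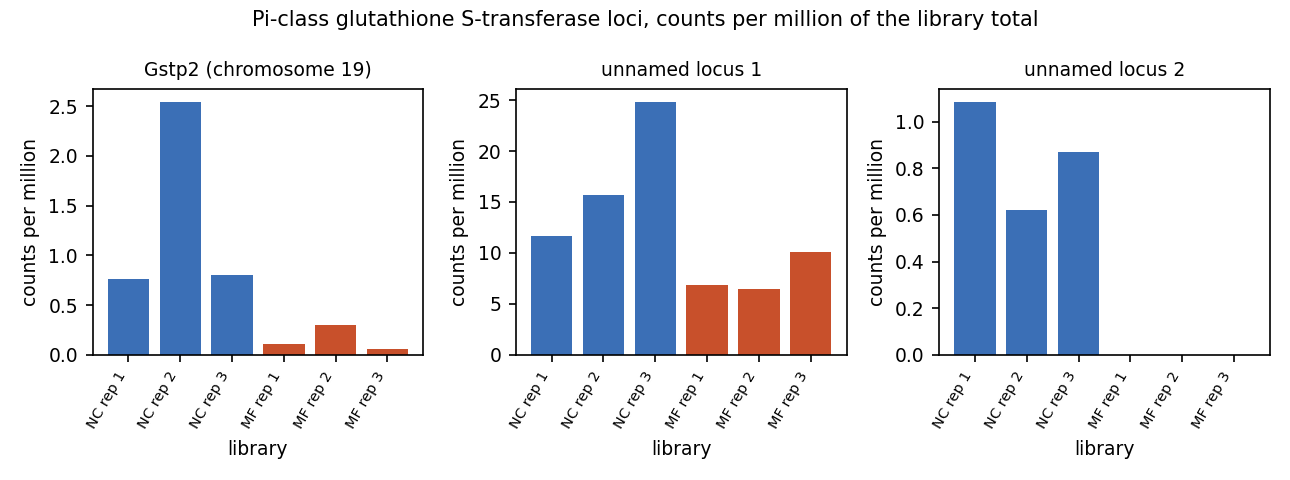
CPM, counts scaled to the library total (vertical axes, linear from 0, each panel on its own scale) at Gstp2 and at 2 deposited loci without a gene name that are described as glutathione S-transferase P; each bar is 1 library. Counts are lower in each MF library than in any NC library at all 3 loci, and the second unnamed locus has 0 counts in MF.

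The glutathione peroxidases moved in opposite directions. Gpx2, a selenium-containing peroxidase best known from the lining of the gut, fell in MF. It lies on the minus strand of mm10 chromosome 12 between 76792333 and 76795554 (ENSMUSG00000042808), within a region where Fntb is annotated on the other strand. As for Gsta3, reads from where the pair overlaps cannot be told apart. The level of Gpx2 was 1.82, 3.35 and 2.91 FPKM in NC replicates 1 to 3 and 0.129, 1.35 and 0.496 FPKM in MF replicates 1 to 3. The exposed libraries spanned 10.4-fold, the widest range of the set, with 8 counts in MF replicate 1 and 73 in MF replicate 2, and the lowest control was 1.35-fold above the highest exposed library. The means were 2.70 ± 0.786 and 0.658 ± 0.625 FPKM (SD, n = 3), a 4.10-fold fall (log2 fold change -2.03, SE 0.77, adjusted p = 0.0326 by edgeR). Leaving out any one library other than MF replicate 2 ended the call, with an adjusted p by edgeR of 0.0540 without NC replicate 1, 0.0706 without NC replicate 2, 0.0569 without NC replicate 3, 0.0823 without MF replicate 1 and 0.106 without MF replicate 3. Calls over all tested genes also dropped in each of these fits, as given for Nqo1. Without MF replicate 2 the log2 fold change was -3.11.

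Gpx8, a peroxidase of the endoplasmic reticulum membrane that uses cysteine in place of selenocysteine, was the only member that rose. It lies on the minus strand of mm10 chromosome 13 between 113042753 and 113046410 (ENSMUSG00000021760). Cdc20b overlaps it on the other strand, with the same limit as for Gsta3 and Gpx2. The level of Gpx8 was 27.6, 7.23 and 20.4 FPKM in NC replicates 1 to 3 and 43.2, 42.5 and 38.1 FPKM in MF replicates 1 to 3. The exposed libraries lay close together, with a coefficient of variation of 6.74%, and 1.64% of tested genes had a lower one in MF; NC replicate 2 was far below the other controls. The means were 18.4 ± 10.3 and 41.3 ± 2.78 FPKM (SD, n = 3), a 2.24-fold rise (log2 fold change 1.17, SE 0.49, adjusted p = 0.0428 by edgeR). This call was lost when any one library was left out, with an adjusted p by edgeR from 0.0522 without NC replicate 1 to 0.103 without MF replicate 3, and the log2 fold change was 0.78 (adjusted p = 0.0757) without NC replicate 2. It was 0.0764 without NC replicate 3, 0.0962 without MF replicate 1 and 0.0699 without MF replicate 2. With TMM scaling over the deposited genes the log2 fold change was 0.53 (adjusted p = 0.285 by edgeR), and with median-of-ratios scaling over them 0.23 (adjusted p = 0.750 by DESeq2). Over all tested genes these scalings left 291 and 263 called higher, against 1026. The FPKM of Gpx8 exceeded that of Gpx2 in every library, by 2.16-fold to 15.1-fold in NC and by 31.5-fold to 334-fold in MF. These ratios depend on the gene lengths used for FPKM, the merged exons. Those were 3222 bases for Gpx2, against 1067 in its longest coding transcript, and 1048 against 1042 for Gpx8. By raw counts Gpx2 was ahead in NC replicate 2, with 174 against 122 for Gpx8.

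**Figure D3:**
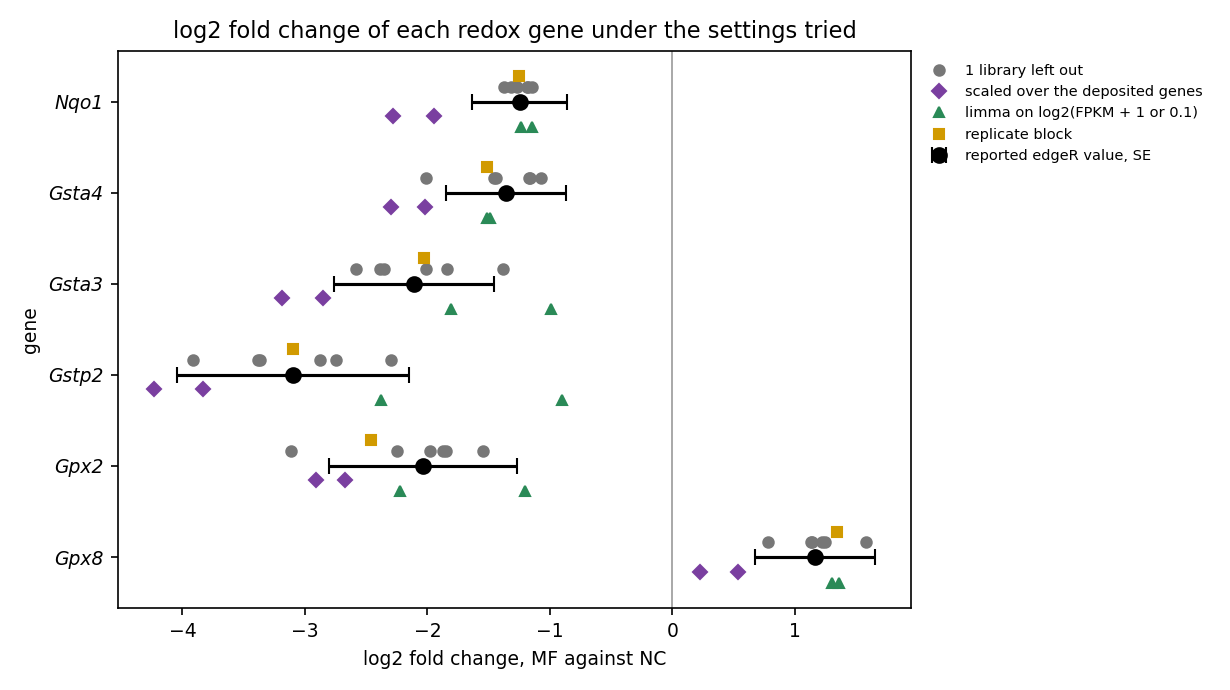
log2 fold change of MF against NC (horizontal axis) for each redox gene; black points with SE are the reported edgeR values, and coloured marks are other settings, of which the limma values are on the log2(FPKM + pseudocount) scale. Nqo1, Gsta4, Gsta3, Gstp2 and Gpx2 stay below 0 at each mark and Gpx8 above 0, closest to it at 0.23 when scaled over the deposited genes.

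For all 6 members an exact two-sided permutation test of the mean FPKM over libraries gave p = 0.1, the smallest that 3 libraries against 3 allow. The groups did not overlap for any of the 6, as for 92.5% of all tested genes (34.2% lower and 58.4% higher in MF). Adding the replicate number to edgeR's fit as a block kept all 6 calls, with log2 fold changes of -1.25 for Nqo1, -1.52 for Gsta4, -2.03 for Gsta3, -3.09 for Gstp2, -2.46 for Gpx2 and 1.34 for Gpx8. Adjusted over the 19069 recovered tests, that blocked fit called Gsta4 alone among them (adjusted p = 0.0464 by edgeR). Nqo1 and Gsta3 stood at 0.0633, Gstp2 at 0.0664, Gpx2 at 0.0872 and Gpx8 at 0.205. No label says that same-numbered libraries are pairs, so the block rests on the values of these libraries. Its use with this adjustment was chosen after the data were seen.

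The libraries of replicate 2 were the extreme ones for the redox genes that fell. NC replicate 2 was the highest control and MF replicate 2 the highest exposed library for each of the 5 genes that fell; among the 599 tested genes lower in MF, this held for 80.8% in NC and 89.8% in MF. Relative to the NC mean of log2(FPKM + 0.1), Gsta4 stood at -2.18, -0.55 and -1.81 in MF replicates 1, 2 and 3, Gpx2 at -3.56, -0.91 and -2.19, and Nqo1 at -1.37, -1.0 and -1.35. Nqo1 thus differed less between the exposed libraries than Gsta4 and Gpx2 did. Gpx8 stood at 1.43, 1.41 and 1.25; MF replicate 3 was its lowest exposed library, which was so for 7.22% of the 1052 tested genes higher in MF, while MF replicate 2 was lowest for 82.8% of them.

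Deposited cell type markers went in both directions. Those of naive pluripotency and germ cells fell and most of the others rose. Over all tested genes, each chosen on these libraries, 35.4% fell and 62.1% rose. The 3 deposited of 10 markers of naive pluripotency, Dppa3, Utf1 and Prdm14, fell; summed, they stood at 172 to 428 FPKM in NC and 16.2 to 105 FPKM in MF. All 3 deposited of 5 germ cell markers fell, from 35.2 to 158 FPKM in NC to 2.32 to 12.4 FPKM in MF. The 7 deposited of 8 cardiomyocyte markers rose, from 28.6 to 68.1 FPKM in NC to 108 to 636 FPKM in MF, and the 7 deposited of 8 fibroblast and mesenchyme markers rose from 86.6 to 241 FPKM to 203 to 1077 FPKM. Of 6 endothelial markers 4 rose and Pecam1 fell, their sum running from 12.4 to 42.8 FPKM in NC and from 21.9 to 41.3 FPKM in MF. Both deposited of 5 genes listed as trophoblast markers, Hand1 and Cdx2, rose, from 24.9 to 55.2 FPKM to 62.1 to 144 FPKM. Most of that sum was Hand1, at means of 41.9 FPKM in NC and 113 FPKM in MF, against 1.06 and 3.45 FPKM for Cdx2. Hand1 stands for heart and neural crest derivatives expressed 1, so the sum does not single out trophoblast. No deposited marker was at 0 counts in a whole group, and markers of visceral endoderm and liver-like cells, blood and neural cells were not analysed here. In MF replicates 1, 2 and 3 the median marker of naive pluripotency stood at -3.79, -1.17 and -3.06 log2 units from the NC mean and that of cardiomyocytes at 4.36, 1.48 and 3.28. MF replicate 2 was thus the exposed library nearest to the controls for these lists and for Gsta4, Gsta3, Gstp2, Gpx2 and Nqo1. The part of these markers in the redox results was not tested.

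**Figure D4:**
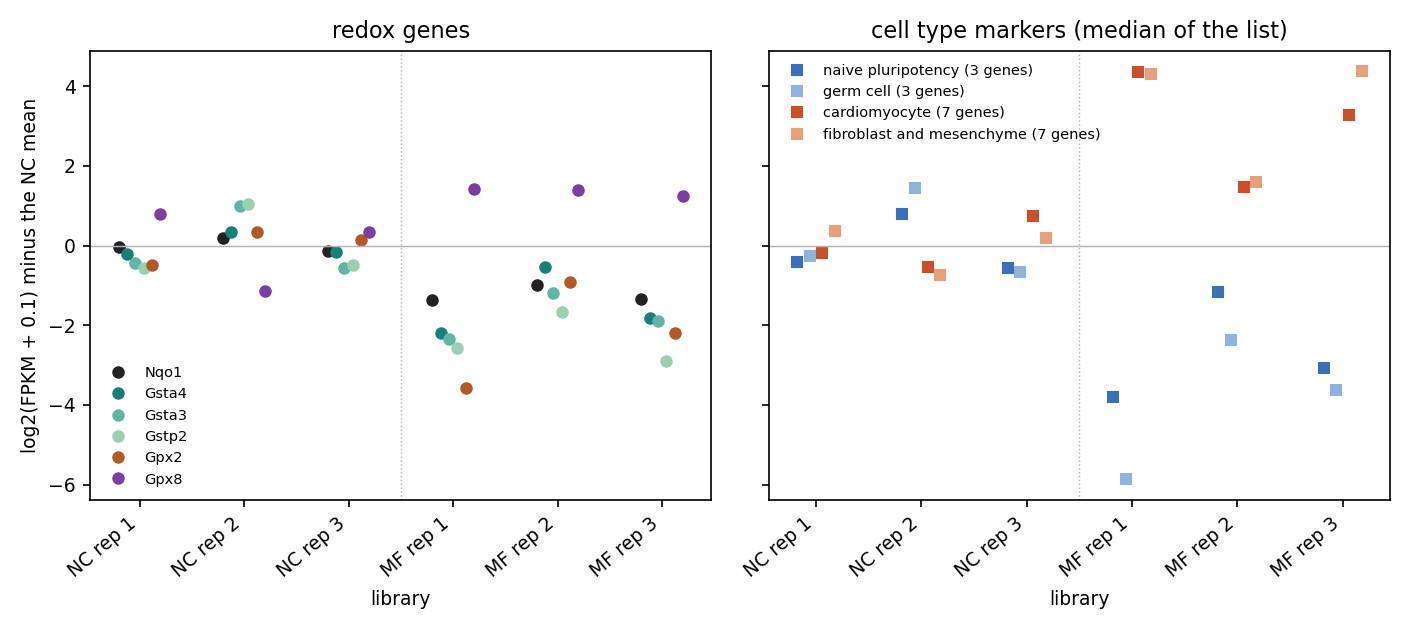
log2(FPKM + 0.1) minus the NC mean (vertical axis) in each library for the 6 redox genes (left) and for the median of 4 lists of deposited cell type markers (right). Among the exposed libraries MF replicate 2 lies nearest to 0 for the 5 redox genes that fell and for all 4 marker lists, while Gpx8 lies between 1.25 and 1.43 in all of them.

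The genes most like each member were found by the root mean square difference of log2(FPKM + 0.1) over the 6 libraries, each gene being centred on its own mean, among protein-coding genes whose mean reached 2 FPKM. Nqo1 was nearest to Rbpms2 (0.08 log2 units), Exosc5 (0.08), a subunit of the RNA exosome, and Mthfd1 (0.10), an enzyme of folate metabolism; the median of the 960 genes compared was 1.32. Gsta4 was nearest to Spire2 (0.10), Slc9b1 (0.13) and Map3k15 (0.16), and Gsta3 to Zbtb32 (0.14), Sox15 (0.15) and Gls2 (0.15), a mitochondrial glutaminase. Gstp2 had no gene as near, with Ly6a at 0.25, Rfx2 at 0.28 and Rec114 at 0.28, nor had Gpx2, with Slc7a3 at 0.32, Glt1d1 at 0.34 and Tekt1 at 0.37. Gpx8 was nearest to Scrn1 (0.12), Cthrc1 (0.16), a secreted protein of collagen-rich tissue, and Plppr2 (0.18). Between members the difference was smallest for Gsta3 and Gstp2 (0.37) and, among the genes that fell, largest for Nqo1 and Gpx2 (0.86). These values describe 6 libraries that share one contrast.

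Other genes of redox metabolism were taken from 10 lists by role, which hold 157 genes. Some of them, Gclc, Gclm, Txnrd1, Srxn1, Gstk1 and Gstz1, also bear names that the rule covers and were not analysed here. Over all tested genes, each chosen on these libraries, 35.4% fell and 62.1% rose. Of the listed genes 22 were deposited and 20 tested, of which 10 fell and 9 rose. Their median log2 fold change was 0.03, midway between the falling and the rising genes and near no single gene, beside 1.22 over all tested genes. None of the listed genes for the thioredoxin system or for further peroxide and superoxide removal was analysed here. None of the 20, all from a table chosen on these libraries, changed its sign under TMM or median-of-ratios scaling over the deposited genes. Under either scaling 0 of the 9 genes that rose passed the test, and the 10 that fell still passed. Over all tested genes 291 (TMM) and 263 (median of ratios) were then called higher, against 1026. These scalings moved the median log2 fold change of all tested genes by -0.70 and -1.05.

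In glutathione turnover and reduction most deposited genes fell, beside 35.4% of all tested genes lower and 62.1% higher. Gsr, glutathione reductase, which returns oxidised glutathione to its reduced form, was 41.9, 56.2 and 34.9 FPKM in NC replicates 1 to 3 and 17.5, 27.9 and 20.8 FPKM in MF replicates 1 to 3, with no overlap. It fell 2.01-fold, from 44.3 ± 10.9 to 22.0 ± 5.32 FPKM (SD, n = 3), with an adjusted p of 0.0333 by edgeR. Of the 5 deposited of 18 genes of glutathione synthesis, breakdown and cystine supply, 4 were tested; 3 fell and 1 rose. Ggct, gamma-glutamyl cyclotransferase, which breaks down gamma-glutamyl peptides, fell 2.84-fold from 2.55 ± 0.0789 to 0.897 ± 0.522 FPKM. Cth and Cbs, the enzymes that make cysteine from homocysteine by transsulfuration, fell 2.20-fold from 7.18 ± 0.747 to 3.26 ± 1.59 FPKM and 3.13-fold from 1.06 ± 0.572 to 0.338 ± 0.183 FPKM. The groups overlapped for Cbs, where MF replicate 2, at 0.549 FPKM, lay just above NC replicate 3, at 0.546 FPKM. Dpep1, a dipeptidase that cleaves cysteinyl-glycine, rose 10.7-fold from 0.126 ± 0.151 to 1.39 ± 0.619 FPKM. That fold rests on 15 counts over the NC group and 177 over the MF group. Slc1a1, a transporter of glutamate and cysteine, was below the filter, at 0.478 ± 0.335 FPKM in NC and 0.126 ± 0.0517 FPKM in MF.

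Of 27 genes of carbonyl and quinone reduction, 4 were deposited and tested. Beside 97.5% of all tested genes called, 35.4% lower and 62.1% higher, all 4 fell. Akr1b3, aldose reductase, had the highest level of them, at 47.0, 25.3 and 37.8 FPKM in NC replicates 1 to 3 and 10.6, 16 and 8.71 FPKM in MF replicates 1 to 3. NC replicate 2 was here the lowest control, unlike in Nqo1, and the groups did not overlap. Akr1b3 fell 3.12-fold from 36.7 ± 10.9 to 11.8 ± 3.78 FPKM (SD, n = 3), with an adjusted p of 0.0191 by edgeR. Cbr3, a carbonyl reductase, fell 2.95-fold from 11.0 ± 4.08 to 3.72 ± 1.85 FPKM, Ephx2, the soluble epoxide hydrolase, fell 2.91-fold from 9.60 ± 5.55 to 3.30 ± 1.81 FPKM, and Aldh3b1, an aldehyde dehydrogenase, fell 3.28-fold from 1.06 ± 0.317 to 0.321 ± 0.150 FPKM. Among genes of NADPH supply, 2 of 14 were deposited, both of them transketolase-like genes. Tktl1 fell 10.5-fold from 1.37 ± 1.17 to 0.129 ± 0.182 FPKM, with 161 counts over the NC group and 16 over the MF group. Tktl2, below the filter, stood at 0.895 ± 1.07 and 0.0756 ± 0.0806 FPKM. NC replicate 2 was far the highest library for both Tktl1 and Tktl2 (2.71 and 2.13 FPKM). Of 18 membrane and other glutathione-conjugating genes and exporters, Abcc4, an exporter of conjugates, fell 2.96-fold with overlapping groups, from 7.10 ± 5.12 to 2.40 ± 1.25 FPKM, and Clic5, a chloride channel protein of the transferase fold, rose 3.06-fold from 0.316 ± 0.102 to 0.970 ± 0.118 FPKM.

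Beside Dpep1 and Clic5, the genes that rose were an NRF2 regulator, genes of haem and iron handling and lysyl oxidases. Over all tested genes 62.1% rose. Of 13 NRF2 regulators only Bach2, a repressor that can occupy AREs, was deposited; it rose 2.11-fold from 1.51 ± 0.682 to 3.18 ± 0.674 FPKM (SD, n = 3), with an adjusted p of 0.0452 by edgeR. Of 13 genes of haem and iron handling 2 were deposited and both rose: Slc40a1, the iron exporter ferroportin, 2.19-fold from 4.35 ± 1.23 to 9.55 ± 2.45 FPKM, and Hp, haptoglobin, 3.88-fold from 0.489 ± 0.370 to 1.90 ± 0.442 FPKM. Of 21 listed enzymes that produce superoxide or peroxide 5 were described, and 4 of these rose. All 5 are lysyl oxidases, which crosslink collagen and elastin and release peroxide while doing so. Loxl2 rose 2.45-fold from 16.2 ± 4.79 to 39.8 ± 16.1 FPKM, Loxl1 2.5-fold from 16.6 ± 8.06 to 41.4 ± 15.0 FPKM, Loxl4 2.59-fold from 1.26 ± 0.498 to 3.28 ± 0.678 FPKM and Lox 3.12-fold from 1.78 ± 1.32 to 5.55 ± 2.43 FPKM, with overlapping groups for Lox and Loxl1. Loxl3 did not pass (1.04 ± 0.489 FPKM in NC, 2.34 ± 0.390 FPKM in MF; adjusted p = 0.0525 by edgeR).

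**Figure D5:**
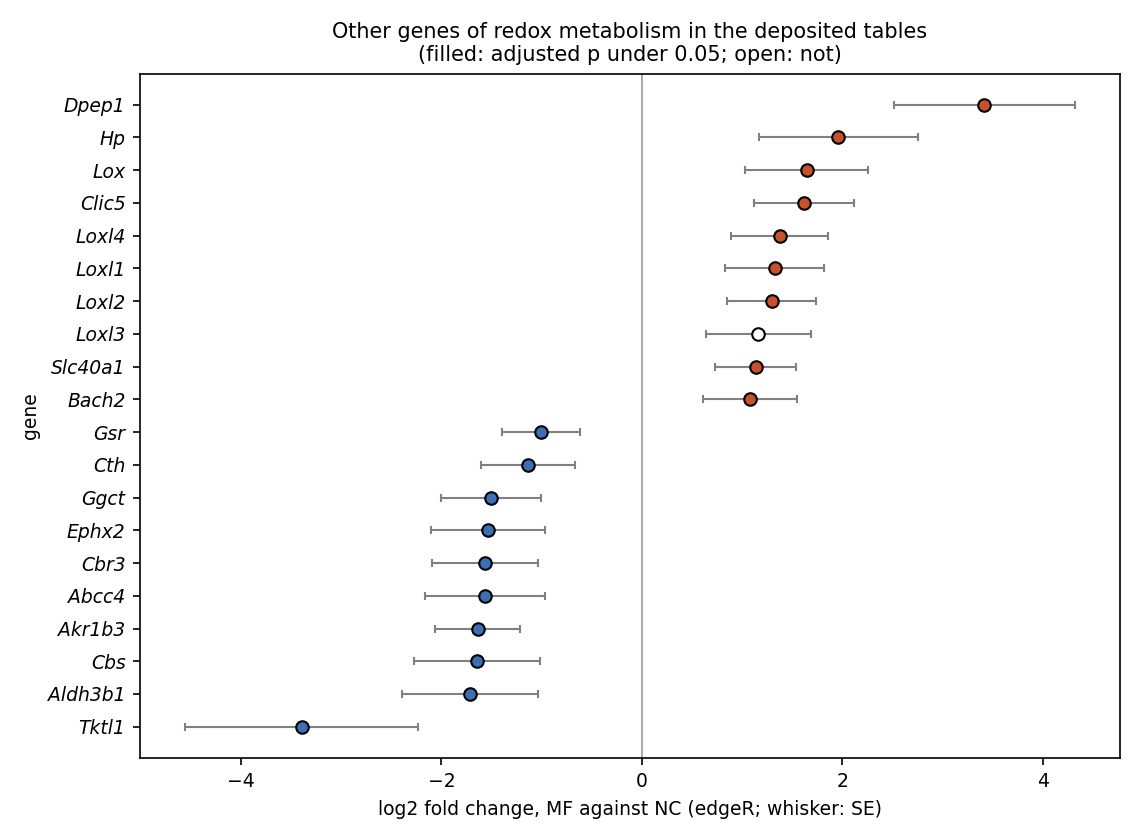
log2 fold change of MF against NC with its SE (horizontal axis) by edgeR for the 20 tested genes of the redox lists that are not members, ordered by value; filled points passed the test at 0.05, blue lower and red higher in MF, and the open point, Loxl3, did not. Genes of glutathione turnover and carbonyl reduction lie mostly below 0 and the lysyl oxidases above it.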

How the data were processed

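RNA was measured in 6 poly-A libraries, 3 NC and 3 MF. Per the submitters' processing notes the tools were HISAT2 2.0.5 and featureCounts and the build mm10; settings, and the authors' comparison tool, are not stated in the sources used here. Per the file headers, the authors deposited a raw count, an FPKM value, a normalized signal (the count divided by a constant for each library), a log2 fold change, a p-value and an adjusted p-value for each gene, with gene length. The deposited FPKM and counts gave the library totals, used as library sizes. The deposited gene lengths of the members equal their merged exons in GENCODE M21.

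Of 2031 deposited genes, 48 without a name (0.0134% to 0.0390% of library totals) were not tested, and 332 named genes fell under the filter of 0.5 FPKM. The test was edgeR 4.0.16 (R 4.3.3), quasi-likelihood, group only, two-sided, all 6 libraries, adjusted over 1651 genes, a choice made knowing that adjustment over 19069 tests passes none; folds are edgeR's. Per-list tests were not made, and 1 listed gene is not reported here and is left out of the list counts. The pipeline was tested on simulated data. P-values set the group difference against the spread between these samples, for genes already chosen on the same libraries.

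Same-numbered libraries deviated together from their group means (correlations 0.405, 0.536 and 0.354 across tested genes), and NC replicate 3 correlated more with MF replicate 1 (0.540); the pairing comes from the values, not from a label. No libraries were duplicates (chi-square per gene at least 19.4). Members, gene lists and tests were chosen with earlier results of these data known. All deposited members were named, with up to 8 deposited genes per redox list and the 3 nearest genes per member. Alternatives were TMM, DESeq2 1.42.0, limma 3.58.1 on log2(FPKM + 1) and log2(FPKM + 0.1), other filters, the replicate block, libraries left out, and adjustment over 19069 tests; DESeq2 with the authors' size factors and the block with that adjustment were chosen after seeing the data.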

Additional observations from a re-analysis of the deposited data

How the results depend on the processing

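No redox gene changed direction under any setting tried. Every deposited gene was chosen on these libraries for a log2 fold change of at least 1.001 in size, which favours a kept direction. The share of all tested genes that kept theirs was not counted. With the replicate number as a block, with limma on log2(FPKM + 1) or log2(FPKM + 0.1), without a filter, without both replicate 2 libraries and in DESeq2 with the authors' size factors, all 6 calls were kept; the block gave 1030 genes higher and 590 lower over all tested genes, 10 other redox genes higher and 10 lower, and changed no member's call at this adjustment. Scaling over the deposited genes moved the median log2 fold change of all tested genes by -0.70 (TMM) and -1.05 (median of ratios). This left 291 and 263 genes called higher, against 1026, and 0 members and 0 other redox genes higher, with Gpx8 at 0.53 and 0.23. Of the 2031 deposited genes, 1284 are higher in MF. A filter at 2 FPKM left 611 genes higher and 369 lower, 2 members lower (Gsta3, Gstp2 and Gpx2 were not tested) and 6 other redox genes lower, out of fewer genes tested. Adjusted over the recovered tests, 0 genes, 0 members and 0 other redox genes were called in either direction; log2 fold changes stayed at -1.25 for Nqo1, -2.11 for Gsta3, -3.10 for Gstp2, -1.36 for Gsta4, -2.03 for Gpx2 and 1.17 for Gpx8. The blocked fit with that adjustment called 376 genes higher and 128 lower, 1 member lower and 0 higher, and 3 other redox genes higher and 0 lower; the uncalled members stood at -1.25 (Nqo1), -2.03 (Gsta3), -3.09 (Gstp2), -2.46 (Gpx2) and 1.34 (Gpx8).

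With 1 library left out, 12 (without MF replicate 3) to 996 genes were called higher and 0 to 582 lower. Of the members 0 to 5 were called lower (0 without MF replicate 1 or 3) and 0 higher, and of the other redox genes 0 to 9 higher and 0 to 10 lower. Log2 fold changes ran from -1.38 to -1.15 for Nqo1, -2.58 to -1.38 for Gsta3, -3.91 to -2.30 for Gstp2, -2.01 to -1.07 for Gsta4, -3.11 to -1.54 for Gpx2 and 0.78 to 1.58 for Gpx8. The cause of these losses was not tested; without both replicate 2 libraries, 1027 genes were called higher and 582 lower. Depth limits Gstp2 most, with 8 counts over the MF group.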
